A study of Homo sapiens with 240 samples.

Results

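The enzymes of cholesterol and fatty acid synthesis were followed as 33 genes chosen by symbol, 18 of the sterol branch and 15 of the fatty acid branch. Of the 33, 32 reached 1 TPM (the usual transcript abundance scaled by length and library) in at least 3 libraries of each of the 5 deposited tables. They stood among 13317 to 13746 genes that did so, of 27234 listed. The exception was ACACA, the cytosolic acetyl-CoA carboxylase, whose deposited row lies on an alternate copy of chromosome 17 with 2 copies noted. It was listed at 0.0290 to 0.246 TPM and was not tested, so the fatty acid branch is described by 14 genes. The deposited values of a library summed to 396341.3 to 449207.5 TPM, below the total that the unit's name implies. In the FNIP1 table the sums ran from 410712.5 to 449207.5 TPM. The reason was not tested, so levels and the 1 TPM cutoff may not be on the usual scale.

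The series holds 240 polyA RNA-seq libraries from HEK 293T, a transformed line from embryonic human kidney, in 80 groups of 3. Cells labelled as knockouts (KO) of AMPK, the energy-sensing kinase, and their WT cells were given 4 compounds for 2, 4, 8 or 16 h. The compounds were 991, which activates AMPK, CCCP, which uncouples mitochondria, and the complex I inhibitors phenformin and rotenone, labelled Phen and Rot. FNIP1 knockout cells that carried the SA5 form of FNIP1, a mutant of its AMPK phosphosites, or WT FNIP1 were given 991 for the same times. TFEB+TFE3 double knockout (DKO) and WT cells, ESRRA KO and WT cells, and cells given siPGC1a or siControl received 991 for 2, 4, 8, 16 or 24 h. Each of the 10 arms had 1 DMSO group, labelled 0 h, so every change against DMSO also carries time in culture. Compound doses, and whether a line is 1 clone, are not stated in the labels. The design text asks about lysosomal and mitochondrial genes, and the lipid enzymes are not its stated subject.

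Cholesterol is built from acetyl-CoA through mevalonate and farnesyl diphosphate to squalene and lanosterol, which a further set of enzymes converts to cholesterol. Fatty acids are built from acetyl-CoA by acetyl-CoA carboxylase and fatty acid synthase, then elongated, desaturated and activated with coenzyme A. The SREBP transcription factors (SREBF1, SREBF2) drive many genes of both branches when INSIG proteins release them, and AMPK is known to phosphorylate and inhibit acetyl-CoA carboxylase.

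Changes are differences of mean log2(TPM + 1), with their standard error after ±, and for genes near 1 TPM this scale makes a change look smaller than it is. A gene is said to have risen or fallen where its adjusted p in limma was under 0.05 over all genes tested in its table. All comparisons within an arm share its DMSO libraries. Of the genes that define the arms, PRKAA1 stood at 2.15 to 3.73 TPM in AMPK KO libraries and 6.03 to 10.6 TPM in WT libraries, and PRKAA2 at 2.55 to 4.87 and 3.77 to 7.40 TPM. ESRRA stood at 4.44 to 8.46 TPM in ESRRA KO and 8.01 to 12.7 TPM in WT, and PPARGC1A at 0.0150 to 0.107 TPM with siPGC1a and 0.254 to 0.484 TPM with siControl. TFEB did not separate the DKO arm, at 1.32 to 2.72 TPM in DKO and 1.24 to 3.56 TPM in WT, nor did TFE3, at 7.18 to 10.2 and 8.81 to 14.01 TPM, so their levels give no check of that label. FNIP1 stood at 5.47 to 195 TPM in SA5 and 221 to 271 TPM in WT FNIP1 cells. It was also high with siPGC1a (223 to 289.5 TPM) and siControl (129 to 179 TPM) and in ESRRA KO (169 to 241 TPM) and their WT cells (146 to 229 TPM), whose labels name no added FNIP1, against 2.08 to 7.17 TPM in the AMPK arms. Of 6 listed HEK markers 3 had a median of at least 1 TPM (VIM, NEFL, LIN28B), with sums of 183 to 784 TPM per library, and 6 of 6 markers of differentiated kidney were under 0.1 TPM, with sums of 0 to 0.17 TPM per library. Of 17 markers of other cell types 13 were under 0.1 TPM in the median, with sums of 3.07 to 20.4 TPM, and with COL1A1 and CD68 above 1 TPM. For 6 WT libraries of the AMPK table, 3 of Phen at 2 h and 3 of CCCP at 4 h, the opening words of the label name another compound or time than the sample code, and no result on the WT arm at those times is free of them. The library of SA5 cells under DMSO numbered 1 stood apart from its group, with a mean correlation to its fellows of 0.891.

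In WT cells of the AMPK table under DMSO the enzymes spanned a wide range of levels. SCD, the stearoyl-CoA desaturase that makes oleate, was the highest at 184 ± 2.45 TPM (SD, n = 3), followed by ACLY, which makes cytosolic acetyl-CoA from citrate, at 141 ± 16.5 TPM. FDPS, EBP and ACAT2 of the sterol branch came next at 121 ± 6.17, 111 ± 2.51 and 103 ± 2.58 TPM. FASN, the fatty acid synthase, and FDFT1, which makes squalene, stood level at 78.8 ± 0.495 and 78.8 ± 6.29 TPM, and did not differ beyond their spread. At the low end were LSS, the lanosterol synthase, at 3.88 ± 0.380 TPM, LPIN1, a phosphatidate phosphatase, at 3.19 ± 0.200 TPM, and ACACB, the mitochondrial acetyl-CoA carboxylase, at 1.64 ± 0.178 TPM. The row for LSS has 2 copies, and the IDI1 row of the AMPK table is a non-coding transcript of that gene where the other 4 tables use a coding one.

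The promoters of 4 enzymes are shown because differences between AMPK KO and WT cells in these genes are described below. They are RefSeq sequences on GRCh38.p14, 250 bases before the transcript start, written 5′ to 3′ in the direction of the gene, and capitals mark CCAAT, the NF-Y box, or ATTGG, its complement. IDI1 isomerises isopentenyl diphosphate (chr10:1049120-1049369, minus strand), and HMGCS1 makes HMG-CoA (chr5:43313413-43313662, minus strand). MSMO1 oxidises the C4 methyl groups of the sterol ring (chr4:165327419-165327668, plus strand), and FADS2 is the Δ6 desaturase of polyunsaturated fatty acids (chr11:61815953-61816202, plus strand). HMGCS1 and MSMO1 were picked for display after their values had been seen. They were taken from the sterol genes whose windows hold CCAAT, so its presence in them was fixed by that choice. The IDI1 window is set on a start 247 bases inside the coding transcript that the other 4 tables list, whose own start is at base 1049366, so most of the window lies within that transcript. The AMPK table's values belong to a non-coding IDI1 transcript that starts at base 1056716, outside the window. The HMGCS1 window is likewise set on a start 100 bases inside the listed transcript.
IDI1: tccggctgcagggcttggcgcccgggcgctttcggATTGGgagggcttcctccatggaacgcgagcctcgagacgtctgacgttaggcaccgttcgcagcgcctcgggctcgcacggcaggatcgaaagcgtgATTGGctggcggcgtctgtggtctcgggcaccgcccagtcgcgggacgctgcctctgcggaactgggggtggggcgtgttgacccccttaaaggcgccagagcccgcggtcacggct
HMGCS1: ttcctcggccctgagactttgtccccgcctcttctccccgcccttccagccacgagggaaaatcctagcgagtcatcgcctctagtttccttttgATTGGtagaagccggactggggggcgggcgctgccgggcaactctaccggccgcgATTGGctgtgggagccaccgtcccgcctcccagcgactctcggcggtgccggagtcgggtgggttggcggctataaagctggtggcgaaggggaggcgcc
MSMO1: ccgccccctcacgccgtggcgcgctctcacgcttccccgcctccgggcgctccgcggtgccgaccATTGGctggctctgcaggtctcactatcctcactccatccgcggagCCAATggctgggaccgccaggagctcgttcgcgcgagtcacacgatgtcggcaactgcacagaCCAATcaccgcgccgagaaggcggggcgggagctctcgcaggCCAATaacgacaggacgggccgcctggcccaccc
FADS2: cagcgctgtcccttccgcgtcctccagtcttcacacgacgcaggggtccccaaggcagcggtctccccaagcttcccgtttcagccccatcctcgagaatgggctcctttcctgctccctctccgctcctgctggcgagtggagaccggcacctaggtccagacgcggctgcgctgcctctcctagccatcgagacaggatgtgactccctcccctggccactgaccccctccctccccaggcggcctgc
The CCAAT box occurs 2 times in the IDI1 window, 2 times in that of HMGCS1 and 4 times in that of MSMO1, and 0 times in that of FADS2. In the RefSeq table, which runs from 250 bases before to 50 bases after each start, 27 of the members were matched. ACAT2, FDFT1, SQLE, FASN, ACACA and ACACB were not matched, so their promoters were not searched. CCAAT on either strand was found in 13 of 15 sterol and 6 of 12 fatty acid promoters, against 34.648% of 34943 promoters. The GC box GGGCGG was found in 14 of 15 and 10 of 12, against 44.867% of all, and the E-box CACGTG in 2 of 15 and 1 of 12, against 7.229%. The letters TCACNCCAC, 1 form of the sterol regulatory element, were in 0 of 15 and 0 of 12 of these windows, against 1.122% of all.

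AMPK KO and WT cells differed before any compound was added. FADS2 was the enzyme with the largest difference, at 5.03, 4.75 and 4.23 TPM in KO libraries and 11.02, 11.1 and 10.3 TPM in WT libraries. The libraries did not overlap, and the difference was -1.06 ± 0.083, adjusted p = 4.3e-18. FASN lay the other way, at 114, 119 and 114 TPM in KO and 79.4, 78.4 and 78.7 TPM in WT (0.55 ± 0.056, adjusted p = 3.1e-13), again with no overlap. In the sterol branch MVK, the mevalonate kinase, was higher in KO cells by 0.43 ± 0.087, while SC5D, the desaturase that acts late on the sterol ring, was lower (-0.41 ± 0.067). Of the 18 sterol genes 3 were higher and 5 lower in KO cells, and of the 14 fatty acid genes 2 and 3, against 16.2% and 22.7% of all genes. The counts of both branches are thus near the shares of all genes. After median-ratio scaling the fatty acid split was 4 higher and 2 lower, and in a fit of only these groups 7 members were called in place of 13. HMGCS1 and SQLE, the squalene monooxygenase, differed between the arms by 0.082 and 0.054 and were not called. FADS2 and FADS1 overlap on opposite strands of chromosome 11 (GRCh38), between 61816203 and 61817057, and it is not stated whether counting used strand, so reads in the overlap could belong to either gene. FADS1, the Δ5 desaturase, differed by -0.12.

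**Figure D1:**
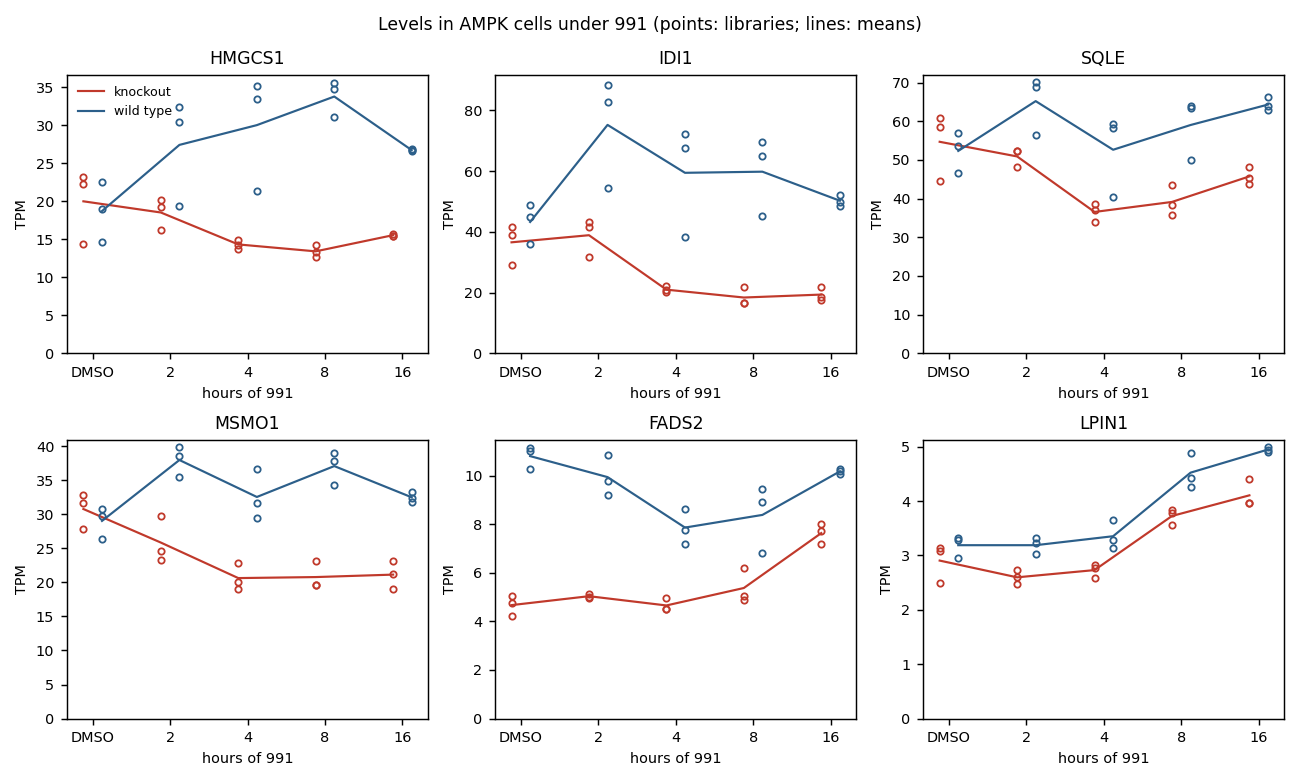
Levels of 6 enzymes in AMPK cells, in TPM, under DMSO and after 2, 4, 8 and 16 h of 991. Points are libraries (3 per group) and lines join group means, with KO in red and WT in blue. HMGCS1 and IDI1 lie lower in KO than in WT at 4 and 8 h of 991, and FADS2 lies lower in KO under DMSO.

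Under 991 some enzymes of the sterol branch, HMGCS1 and IDI1 among them, moved differently in KO and WT cells. At 2 h IDI1 rose in WT cells (0.77 ± 0.15, adjusted p = 0.0001) and so did HMGCS1 (0.51 ± 0.12, adjusted p = 0.0013), whereas in KO cells neither was called, at 0.091 and -0.081. The difference of the responses at 2 h, KO minus WT, was -0.60 ± 0.17, adjusted p = 0.035 for HMGCS1 and -0.67 ± 0.21, adjusted p = 0.061 for IDI1, beside 1.59% of all genes lower and 1.42% higher. No member's response was called different at 2 h without the libraries numbered 2 or 3 or in a fit of only the 4 groups. Over all genes 4.28% rose and 10.7% fell in KO cells at 2 h, and 5.94% and 11.4% in WT cells. By 4 h HMGCS1 stood at 14.3, 13.7 and 14.9 TPM in KO libraries, against 14.4, 23.2 and 22.3 TPM in their DMSO libraries. In WT libraries it stood at 21.3, 33.5 and 35.2 TPM, against 14.6, 22.5 and 18.9 TPM under DMSO. It had fallen in KO cells (-0.43 ± 0.12) and risen in WT cells (0.64 ± 0.12). IDI1 stood at 20.1, 20.7 and 21.99 TPM after 4 h in KO libraries, against 28.996, 41.6 and 38.97 TPM under DMSO, and in WT at 38.4, 67.6 and 72.3 TPM, against 36.04, 48.96 and 44.7 TPM. KO and WT libraries at 4 h of 991 did not overlap for either gene, while HMGCS1 at 4 h overlapped its DMSO libraries in each arm. The difference of the responses, KO minus WT, was -1.17 ± 0.21, adjusted p = 8.6e-05 for IDI1, and -1.07 ± 0.17, adjusted p = 8.7e-06 for HMGCS1. It was also called for MSMO1 at -0.71 ± 0.11, adjusted p = 6.4e-06, and for SQLE at -0.55 ± 0.12, adjusted p = 0.0011.

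At 4 h these were the 4 sterol genes of 18 whose response was lower in KO cells, with 0 higher, against 6.57% and 5.49% of all genes lower and higher. Of the fatty acid genes 2 of 14 were higher, FADS2 and ELOVL1, an elongase of long saturated chains, and 0 lower. The count of 6 was 12 without the libraries numbered 1 in all groups and 1 without those numbered 3, when MSMO1 alone was left, and 1 in a fit of only the 4 groups. In that fit HMGCS1 and IDI1 had -1.07, adjusted p = 0.12 and -1.17, adjusted p = 0.091. Against DMSO, 0 sterol genes rose and 7 fell in KO cells at 4 h and 2 fatty acid genes rose and 3 fell, against 20.4% and 18.3% of all genes. In WT cells 2 sterol genes rose and 6 fell and 4 fatty acid genes rose and 5 fell, against 27% and 18.9%, and these 17 calls were 7 in a fit of only the groups compared. Most sterol genes had no called difference between the arms: DHCR7, a late reductase of the pathway, fell in both (-0.40 in KO and -0.39 in WT), and so did ACAT2, which makes acetoacetyl-CoA (-0.27 and -0.29).

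The separation was widest at 8 h. IDI1 stood at 16.5, 16.7 and 21.8 TPM in KO and 45.1, 64.8 and 69.4 TPM in WT libraries, and its responses differed by -1.40 ± 0.21, adjusted p = 1.4e-06. HMGCS1 stood at 12.7, 13.3 and 14.3 TPM in KO and 31.03, 34.7 and 35.5 TPM in WT libraries, with a difference of -1.35 ± 0.17, adjusted p = 1.5e-08. MSMO1 and SQLE differed by -0.89 ± 0.11 and -0.63 ± 0.12. They were joined by MVD, which makes isopentenyl diphosphate (-0.49), HSD17B7, a sterol ketone reductase (-0.42), SC5D (-0.38) and FDFT1 (-0.37). TM7SF2, the sterol C14 reductase, was the 1 sterol gene whose response was higher in KO, by 0.66: it fell in WT cells (-0.47) and was not called in KO (0.19), where 24.3% of all genes fell and 30.9% rose, against 22.7% and 41.3% in WT. In all 1 sterol gene was higher and 8 lower, and 1 fatty acid gene higher and 5 lower, against 5.14% and 15.8% of all genes. The fatty acid genes that were lower were ACSL4 (-0.55) and ACSL1 (-0.25), which activate fatty acids with coenzyme A, ELOVL5, which elongates polyunsaturated chains (-0.36), ACSS2, which makes acetyl-CoA from acetate (-0.26), and SCD (-0.20). The count of 15 was 8 without the libraries numbered 2, 5 without those numbered 3, 7 in a fit of only the 4 groups, and 20 without those numbered 1.

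At 16 h of 991 the sterol branch of KO cells was mostly lower than under DMSO, and that of WT cells was split. In KO cells 2 sterol genes rose and 11 fell, with a median of -0.20, and 5 fatty acid genes rose and 3 fell, with a median of 0.088. Over all genes 34.8% rose and 27.1% fell in KO cells, with a median of 0.029. In WT cells 7 sterol genes rose and 6 fell (median 0.17), and 7 fatty acid genes rose and 3 fell (median 0.20), against 41.9% and 26.9% of all genes (median 0.071). The WT shares are thus near those of all genes. The 13 sterol calls in KO cells were 8 without the libraries numbered 2.

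By step, the mevalonate part of the pathway (ACAT2 to FDPS, 7 genes) had 2 rises and 4 falls in KO cells and 4 and 2 in WT cells at 16 h. PMVK and MVK, the kinases that phosphorylate mevalonate and its product, rose in both arms, by 0.36 and 0.29 in KO and by 0.25 and 0.54 in WT. The lanosterol part (CYP51A1 to DHCR7, 8 genes) had 0 rises and 5 falls in KO cells and 2 and 4 in WT cells. EBP, the sterol isomerase, fell in both, at 85.3, 78.2 and 79.6 TPM in KO, against 123, 107 and 111 TPM under DMSO, and at 83.1, 82.7 and 83.3 TPM in WT, against 112, 108 and 113 TPM. ACAT2 had the largest fall of WT cells, at 65.5, 63.3 and 66.6 TPM, against 99.9, 105 and 103 TPM under DMSO (-0.65 ± 0.046, adjusted p = 2.5e-20). In the chain-building part of the fatty acid branch ELOVL6, which elongates palmitate, rose alike in both arms, at 16.6, 16.5 and 15.7 TPM in KO and 17.4, 17.6 and 16.9 TPM in WT libraries (0.89 ± 0.092 and 0.89 ± 0.092). SCD fell in both (-0.28 in KO and -0.28 in WT).

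The responses at 16 h still differed between the arms for 1 sterol gene higher and 7 lower in KO, and for 1 fatty acid gene higher and 2 lower, against 4.96% and 10% of all genes. IDI1 (-1.10), HMGCS1 (-0.83), MSMO1 (-0.68), SC5D (-0.54) and SQLE (-0.54) had the largest negative differences. FADS2 had the largest positive one, 0.69 ± 0.12, adjusted p = 1.8e-05: it stood at 7.99, 7.17 and 7.73 TPM in KO libraries after 16 h, against 5.03, 4.75 and 4.23 TPM under DMSO, and in WT at 10.2, 10.1 and 10.3 TPM, against 11.02, 11.1 and 10.3 TPM. The KO and WT libraries, which did not overlap under DMSO, came closer under 991 and still did not overlap at 16 h. Without the libraries numbered 3 the 11 calls were 5, with HMGCS1 at -0.75, adjusted p = 0.094, and without those numbered 2 they were 6. The fatty acid split became 1 higher and 0 lower with median-ratio or quantile scaling, and 7 members were called in a fit of only the 4 groups.

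**Figure D2:**
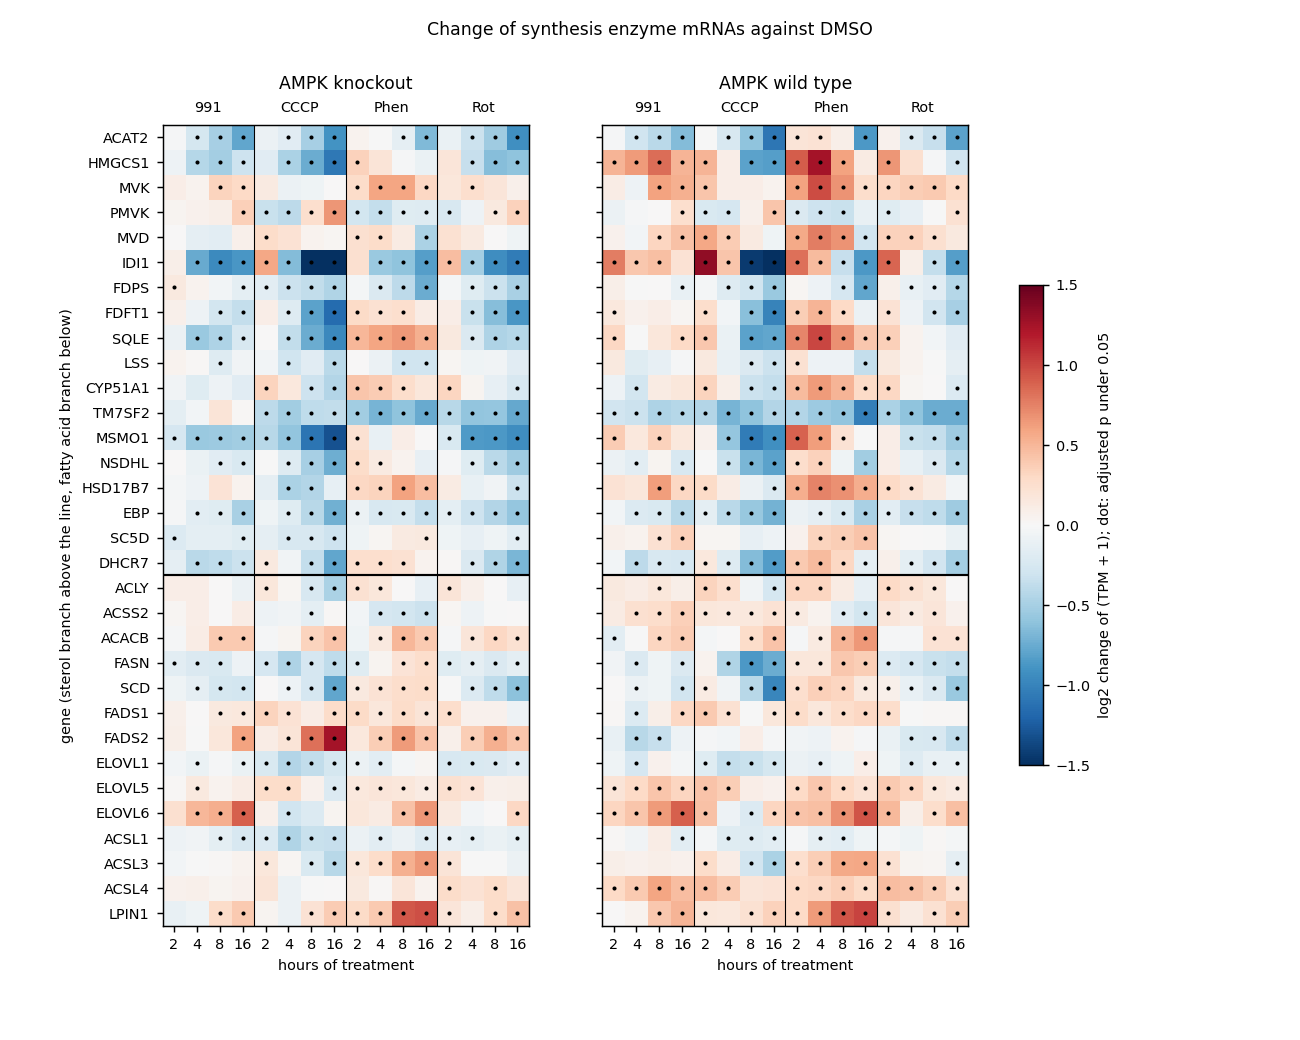
Change of each enzyme against DMSO of its arm, in log2(TPM + 1), in AMPK KO (left) and WT (right) cells under 991, CCCP, Phen and Rot at 2, 4, 8 and 16 h. Red is higher and blue lower than DMSO with the colour scale ending at 1.5 either way, a dot marks an adjusted p under 0.05, and the line parts the 18 sterol genes above from the 14 fatty acid genes below. Most sterol genes are blue under CCCP and Rot at 16 h in both arms, and red under Phen at 4 h in WT.

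CCCP was followed by a broad fall of the sterol branch in both arms. Part of the branch rose early in both, with more genes called in WT than in KO cells. In KO cells the fall was present at 4 h, with 0 sterol genes risen and 14 fallen (median -0.27, beside -0.094 over all genes). Median-ratio scaling made this 2 higher and 9 lower, and quantile normalization 2 higher and 13 lower. At 8 h 1 rose and 14 fell in KO (median -0.40), and 0 rose and 13 fell in WT (median -0.58). The medians over all genes were then -0.017 and 0.021. Shares of all genes called are not given for 4 and 8 h of CCCP, so those counts alone do not set the sterol genes apart. At 2 h IDI1 stood at 43.2, 65.4 and 56.9 TPM in KO libraries, against 28.996, 41.6 and 38.97 TPM under DMSO, and at 107, 121 and 102.1 TPM in WT, against 36.04, 48.96 and 44.7 TPM. It rose by 0.58 ± 0.15, adjusted p = 0.00077 in KO cells, and by 1.33 ± 0.15, adjusted p = 1.4e-11 in WT cells, the largest early rise of any member under CCCP. In KO cells at 2 h 4 sterol and 4 fatty acid genes rose and 4 and 3 fell, against 18.6% and 38% of all genes. After median-ratio scaling the KO sterol split was 6 higher and 3 lower and the fatty acid split 7 higher and 3 lower, or 8 higher and 3 lower after quantile normalization. In WT cells 9 and 9 rose and 3 and 1 fell, against 24.2% and 32.5%.

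By 16 h of CCCP 14 of 18 sterol genes had fallen in KO cells and 14 in WT cells, with 1 risen in each, which was PMVK. All genes fell in 29.3% of cases in KO and 26.6% in WT, and rose in 39.6% and 44.1%. The sterol median was -0.58 in KO and -0.63 in WT, beside 0.049 and 0.091 over all genes. IDI1 stood at 9.73, 10.6 and 10.99 TPM in KO and 13.9, 14.2 and 14.4 TPM in WT libraries, all below the DMSO libraries of their arm (-1.70 ± 0.15 and -1.53 ± 0.15). FDFT1 stood at 30.2, 28.95 and 30.4 TPM in KO, against 60.8, 73.5 and 69.6 TPM under DMSO, and at 38.1, 38.9 and 39.6 TPM in WT, against 72.7, 85.3 and 78.4 TPM. The fatty acid branch was split, with 4 risen and 7 fallen in KO (median -0.099) and 5 risen and 6 fallen in WT (median 0.021). The WT split was 3 higher and 6 lower after median-ratio scaling and 2 higher and 6 lower after quantile normalization. SCD fell to 115, 116 and 115 TPM in KO, against 191, 199 and 202 TPM, and to 92.9, 92.6 and 94.04 TPM in WT, against 182, 187 and 183 TPM under DMSO. FASN fell as well (-0.38 in KO and -0.74 in WT), while ACACB and LPIN1 rose in both, by 0.43 and 0.38 in KO and 0.43 and 0.35 in WT.

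The KO response to 16 h of CCCP differed from the WT response for 2 sterol genes higher and 1 lower, and 3 fatty acid genes higher and 2 lower, against 10.5% and 17.7% of all genes. The sterol split was 1 higher and 3 lower after quantile normalization and the fatty acid split 3 higher and 1 lower after median-ratio scaling. FADS2 had the largest difference of all members, 1.26 ± 0.12, adjusted p = 1.2e-13. It rose in KO cells (1.25 ± 0.083) and was not called in WT cells (-0.02). FASN fell less in KO than in WT cells, with a difference of 0.36 ± 0.079, adjusted p = 0.00034, and MSMO1 fell more, with -0.39 ± 0.11, adjusted p = 0.006. At 16 h IDI1 and HMGCS1, which separated the arms under 991, differed by -0.17 and -0.25 and were not called. Without the libraries numbered 3 the 8 calls at 16 h were 3, and MSMO1 had -0.31, adjusted p = 0.15. At 2 h of CCCP the response was lower in KO for 5 sterol genes and higher for 0 (median -0.17, beside -0.049 over all genes). Of the fatty acid genes 1 was lower and 0 higher. Shares of all genes called are not given for this difference, so the counts alone do not set the members apart. At 4 h IDI1 differed by -1.065, from WT libraries with disputed labels.

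Rotenone, like CCCP, left the sterol branch mostly below DMSO at 16 h. In KO cells 1 sterol gene rose and 14 fell (median -0.52), and 4 fatty acid genes rose and 4 fell, against 35.3% and 27.9% of all genes. In WT cells 2 sterol genes rose and 11 fell (median -0.36), and 5 fatty acid genes rose and 5 fell, against 36.2% and 29.2%. The WT fatty acid split was 3 higher and 5 lower after median-ratio scaling, and its 10 calls were 6 without the libraries numbered 3. ACAT2 fell in both arms (-0.92 in KO and -0.80 in WT), and so did IDI1 (-1.05 and -0.82). FADS2 rose in KO cells (0.41 ± 0.083) and fell in WT cells (-0.38 ± 0.083), a difference of 0.80 ± 0.12, adjusted p = 9.7e-06.

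Phenformin, the other complex I inhibitor, was followed at 4 h by higher levels of most sterol genes in WT cells. At 2 h 10 sterol genes had risen and 3 fallen in KO cells (median 0.24, beside -0.057 over all genes). In WT cells 13 had risen and 2 fallen at 2 h (median 0.38, beside -0.025 over all genes), from the libraries with disputed labels. Shares of all genes called are not given for 2 h of Phen, so these counts alone do not set the sterol genes apart. At 4 h HMGCS1 stood in WT cells at 48.7, 42.03 and 45.05 TPM, against 14.6, 22.5 and 18.9 TPM under DMSO, with no overlap (1.25 ± 0.12, adjusted p = 1.9e-14). In KO cells it stood at 22.5, 21.3 and 23.5 TPM, against 14.4, 23.2 and 22.3 TPM, and was not called (0.19 ± 0.12, adjusted p = 0.16). SQLE rose in both, by 0.59 in KO and 1.002 in WT, as did MVK, by 0.59 and 0.98. IDI1 fell in KO cells (-0.56 ± 0.15) and rose in WT cells (0.48 ± 0.15), and TM7SF2 fell in both (-0.69 and -0.54). In KO cells 8 sterol genes rose and 5 fell (median 0.082), and 8 fatty acid genes rose and 3 fell, against 28% and 39.7% of all genes. In WT cells 13 sterol genes rose and 3 fell (median 0.47), and 10 fatty acid genes rose and 2 fell (median 0.24), against 28.3% and 37.5% (median -0.045). The WT fatty acid split was 10 higher and 0 lower after median-ratio scaling.

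The responses to 4 h of Phen were lower in KO than in WT cells for 7 sterol genes and higher for 0, with 1 fatty acid gene higher and 1 lower, against 2.15% of all genes lower and 1.25% higher. HMGCS1 differed by -1.06 ± 0.17, adjusted p = 3.4e-05, and IDI1 by -1.04 ± 0.21, adjusted p = 0.0023. MSMO1 differed by -0.73 ± 0.11, adjusted p = 1.3e-05, and it alone of these was also called without the libraries numbered 3 and in a fit of only the 4 groups. The 9 calls were 18 without the libraries numbered 1, 2 without those numbered 2, 1 without those numbered 3, and 1 in the fit of only these groups. The fatty acid gene that was higher was FADS2 (0.44 ± 0.12, adjusted p = 0.02), and quantile normalization left no fatty acid gene lower.

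By 16 h of Phen the branches had parted. In WT cells 5 sterol genes rose and 9 fell (median -0.12), while 10 fatty acid genes rose and 1 fell (median 0.25), against 45.3% and 34.9% of all genes (median 0.073). The sterol split was 3 higher and 11 lower and the fatty acid split 6 higher and 3 lower after median-ratio scaling, with 8 higher and 3 lower for the fatty acid genes after quantile normalization. In KO cells the sterol genes gave 4 rises and 8 falls (median -0.11) and the fatty acid genes 9 and 2 (median 0.23), against 41.2% and 37.7%. LPIN1 stood at 6.21, 6.78 and 6.79 TPM in KO, against 2.5, 3.08 and 3.14 TPM under DMSO, and at 7.40, 7.62 and 7.34 TPM in WT, against 2.96, 3.29 and 3.32 TPM. It rose in both arms without overlap (0.96 ± 0.071 and 1.01 ± 0.071). ELOVL6 rose by 0.67 in KO and 0.94 in WT, ACSL3 by 0.66 and 0.58, and FASN by 0.27 and 0.37. In the sterol branch TM7SF2 fell to 8.26, 7.58 and 6.31 TPM in WT, against 17.4, 15.5 and 15.2 TPM, and SQLE rose by 0.53 in KO and 0.41 in WT.

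**Figure D3:**
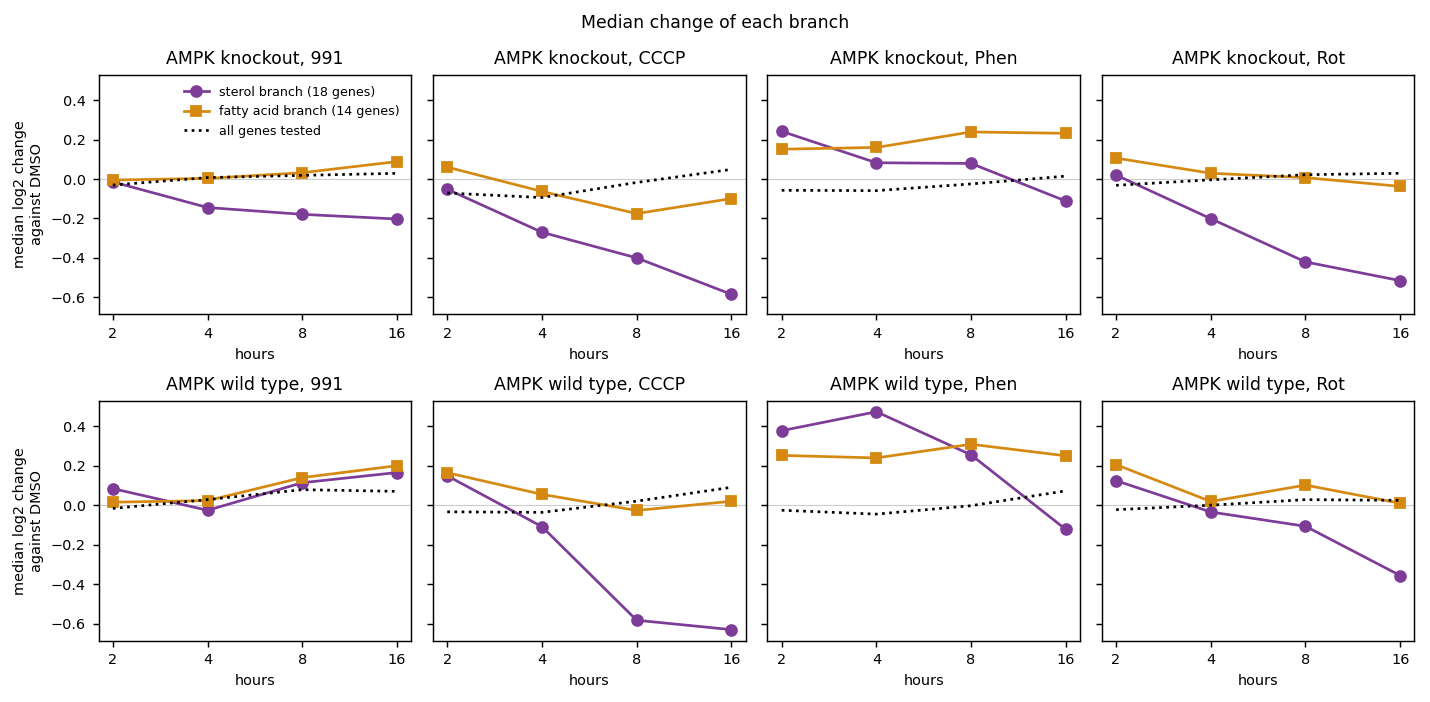
Median change of the sterol genes, the fatty acid genes and all genes tested, in log2(TPM + 1) against DMSO, over 2, 4, 8 and 16 h of each compound, with AMPK KO in the top row and WT in the bottom row. The sterol median reaches -0.58 in KO and -0.63 in WT at 16 h of CCCP, and 0.082 and 0.47 at 4 h of Phen.

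CCCP and Phen, set against each other directly at 16 h, differed for most members, and 6 such pairs of compounds were compared at each time. Doses are not given in the labels, so the pairs are matched in time only, and the 4 compounds are not analogs of each other. In KO cells 13 sterol genes were lower under CCCP than under Phen and 4 higher, with 9 fatty acid genes lower and 2 higher, against 36.2% and 37.5% of all genes. In WT cells the sterol counts were 13 lower and 4 higher and the fatty acid counts 9 and 1, against 35.9% and 33.8%. SQLE differed by -1.503 ± 0.085 in KO and -1.18 ± 0.085 in WT, SCD by -1.05 ± 0.031 and -1.13 ± 0.031, and ACSL3, which activates fatty acids at lipid droplets, by -1.07 ± 0.055 and -1.05 ± 0.055. PMVK and TM7SF2 were higher under CCCP, by 0.85 and 0.39 in KO and 0.53 and 0.59 in WT. LSS did not differ between the compounds in WT cells by the test (0.042 ± 0.082, adjusted p = 0.66). Rot and Phen, which share complex I as target, also differed at 16 h. In WT cells FASN was 0.73 ± 0.056 and SCD 0.71 ± 0.031 under Phen minus Rot, while IDI1 was not called (-0.035 ± 0.15, adjusted p = 0.85). There 8 sterol genes were higher and 5 lower, and 9 fatty acid genes higher and 1 lower, against 40.1% and 29.3% of all genes. The sterol counts are thus near those shares. In KO cells the sterol median was 0.28 and the fatty acid median 0.18, beside 2.0e-04 over all genes, whose called shares are not given.

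Over whole time courses of the AMPK table most members changed, as did most genes. The moderated F test called 14 sterol and 10 fatty acid members under 991 in KO cells and 17 and 12 in WT cells, against 79.6% and 86% of all genes. Under CCCP, Phen and Rot it called 15 to 18 sterol and 11 to 13 fatty acid members in either arm. Of all genes it called 90.8%, 92.1% and 81.3% in KO and 90.7%, 92.2% and 79.3% in WT under these compounds, so the counts are near the background.

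TFEB+TFE3 DKO cells held lower levels of most sterol genes before treatment. MSMO1 stood at 25.8, 25.04 and 24.7 TPM in DKO and 43.9, 51.1 and 45.97 TPM in WT libraries, with no overlap (-0.87 ± 0.057, adjusted p = 5.6e-13). IDI1 stood at 44.9, 46.4 and 45.9 TPM in DKO and 76.02, 73.5 and 69.9 TPM in WT libraries (-0.66 ± 0.041, adjusted p = 1.7e-13). The WT libraries stood above the DKO libraries for IDI1 too, and HMGCS1 and SQLE were lower in DKO (-0.51 and -0.56). In all 2 sterol genes were higher and 14 lower in DKO cells (median -0.37), and 3 fatty acid genes were higher and 5 lower (median -0.018), against 37.6% and 13.7% of all genes (median 0.11). In this comparison median-ratio scaling moved the median of all genes to 0.00046, and the splits became 0 higher and 15 lower for sterol and 2 higher and 8 lower for fatty acid genes, or 0 higher and 14 lower for sterol and 1 higher and 7 lower for fatty acid genes after quantile normalization. PMVK and TM7SF2 were the sterol genes that were higher (0.24 and 0.31). SCD had the largest difference of the fatty acid branch, at 121, 118 and 120.1 TPM in DKO and 176, 195 and 191 TPM in WT libraries (-0.64 ± 0.034, adjusted p = 8.7e-15). FASN and LPIN1 were higher in DKO (0.33 and 0.28), though LPIN1 was not called after quantile normalization (0.13, adjusted p = 0.082).

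**Figure D4:**
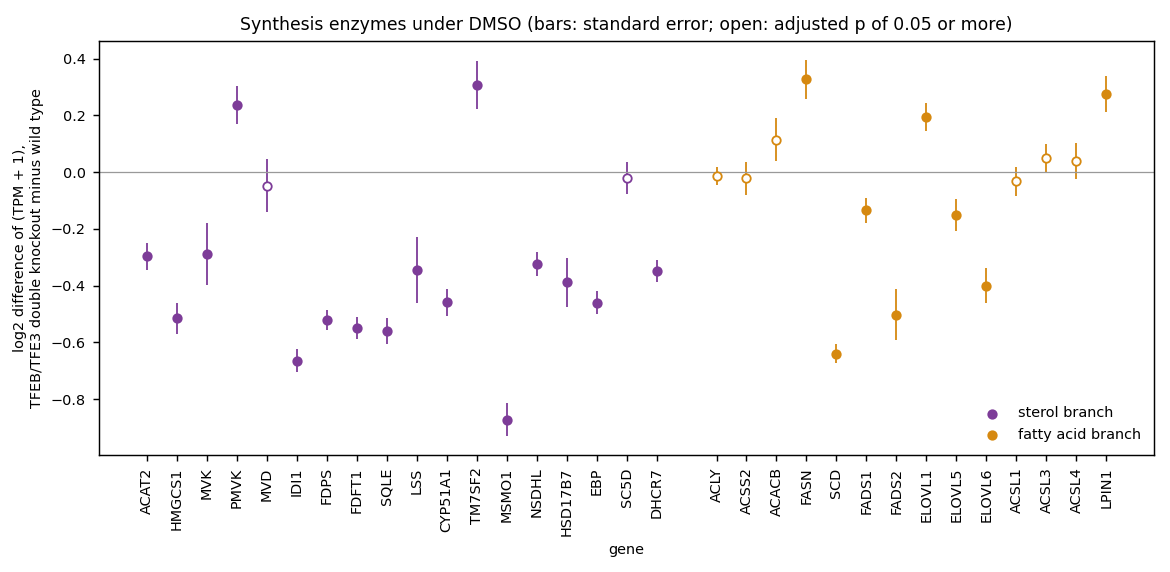
Difference between TFEB+TFE3 DKO and WT cells under DMSO for each enzyme, in log2(TPM + 1), with bars of 1 standard error. Sterol genes are purple, fatty acid genes orange, and open symbols have an adjusted p of 0.05 or more. Of the 18 sterol genes 14 lie below 0 with an adjusted p under 0.05, from MSMO1 at -0.87 to MVK at -0.29.

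Under 16 h of 991 the DKO and WT cells of this table differed in both branches. In DKO cells 4 sterol genes rose and 5 fell and 6 fatty acid genes rose and 3 fell, against 35.7% and 12.5% of all genes. In WT cells 2 sterol genes rose and 9 fell (median -0.16) and 7 fatty acid genes rose and 1 fell (median 0.13), against 41.1% and 17.9% (median 0.13). After median-ratio scaling, which takes the all-gene medians to 0.0056 in DKO and 0.010 in WT, the sterol split was 1 higher and 9 lower in DKO and 1 higher and 12 lower in WT. The fatty acid split was then 2 higher and 3 lower in DKO and 5 higher and 5 lower in WT. The response was higher in DKO for 5 sterol genes and lower for 0, and higher for 1 fatty acid gene and lower for 3, against 5.74% and 6.91% of all genes, and after median-ratio scaling for 2 higher and 3 lower of the fatty acid genes. FASN stood at 61.9, 71.6 and 64.04 TPM in DKO, against 59.5, 61.6 and 67.9 TPM under DMSO, and at 65.4, 71.8 and 70.3 TPM in WT, against 45.5, 49.5 and 55.3 TPM. Its response was smaller in DKO (-0.40 ± 0.099, adjusted p = 0.008), as were those of ACSL3 (-0.32) and SCD (-0.23). MSMO1 and NSDHL, which act on the sterol C4 methyl groups, differed the other way (0.39 and 0.32), falling in WT and, for MSMO1, not being called in DKO (0.11). At 24 h 5 sterol genes were higher and 0 lower, and 0 fatty acid genes were higher and 6 lower, against 4.98% and 9.71% of all genes, and the sterol split was 3 higher and 1 lower after quantile normalization. The 9 calls at 16 h were 3, 5 and 4 without the libraries numbered 1, 2 and 3, and the 11 calls at 24 h were 3, 7 and 4. The 9 DKO fatty acid calls at 16 h were 4 without the libraries numbered 2 and 5 without those numbered 3, and the 9 DKO sterol calls 5 without those numbered 1.

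ESRRA KO cells differed from their WT cells mainly in FASN and ACAT2. Under DMSO FASN stood at 35.5, 34.5 and 37.8 TPM in KO and 51.1, 54.6 and 50.3 TPM in WT libraries, with no overlap (-0.52 ± 0.063, adjusted p = 6.6e-07), and ACAT2 was lower too (-0.35 ± 0.04). In all 0 sterol genes were higher and 4 lower, and 2 fatty acid genes higher and 4 lower, against 6.71% and 14.7% of all genes. These 10 calls were 5 without the libraries of any 1 number and 4 in a fit of only these groups, and the fatty acid split was 3 higher and 3 lower after median-ratio scaling. After 16 h of 991 FASN stood at 72.1, 71.2 and 69.5 TPM in KO and 81.3, 83.5 and 79.2 TPM in WT, and it rose in both (0.96 ± 0.063 and 0.64 ± 0.063). At 16 h 7 sterol genes rose and 3 fell in KO, and 8 fatty acid genes rose and 0 fell, against 31.5% and 12.9% of all genes. In WT cells 5 sterol genes rose and 3 fell, and 7 fatty acid genes rose and 2 fell, against 31.2% and 15%. Median-ratio scaling gave 5 higher and 5 lower for the sterol genes in KO and 3 higher and 6 lower in WT, and 5 higher and 2 lower for the fatty acid genes in KO. Quantile normalization gave 4 higher and 3 lower for the sterol genes in KO and 5 higher and 5 lower in WT, and 6 higher and 1 lower for the fatty acid genes in KO. The 8 KO fatty acid calls were 5 without the libraries numbered 3, and the 8 WT sterol calls 4 without those numbered 1.

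The response to 991 was higher in ESRRA KO for 5 sterol genes at 4 h, with 0 lower and no fatty acid gene called, against 1.54% and 3.08% of all genes. They were IDI1 (0.41 ± 0.078, adjusted p = 0.0031), HMGCS1 (0.33), SQLE (0.25), FDFT1 (0.24) and ACAT2 (0.22). None of the 5 was called without the libraries numbered 1 or 3 or in a fit of only the 4 groups. Without those numbered 2, IDI1 and ACAT2 of the 5 were called, and MVK was called lower (-0.44, adjusted p = 0.032). At 16 h 2 sterol genes and 1 fatty acid gene were higher in KO and none was lower, against 1.31% and 1.53% of all genes, and the count of 3 was 0, 1 and 0 without the libraries numbered 1, 2 and 3. FASN at 24 h had the largest difference, 0.46 ± 0.089, adjusted p = 0.0038, with 0.523% of all genes higher and 0.762% lower, but 0.53, adjusted p = 0.091 and 0.36, adjusted p = 0.21 without the libraries numbered 1 and 2.

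Cells with siPGC1a differed from siControl cells under DMSO in LPIN1 above all, at 2.36, 2.52 and 2.26 TPM with siPGC1a and 3.44, 4.03 and 3.14 TPM with siControl (-0.42 ± 0.088, adjusted p = 0.00069). ELOVL1 was higher, at 37.2, 41.3 and 36.98 TPM with siPGC1a and 29.4, 29.7 and 32.3 TPM with siControl (0.33 ± 0.06, adjusted p = 0.00013). In all 0 sterol genes were higher and 3 lower, and 2 fatty acid genes higher and 5 lower, against 14.3% and 9.89% of all genes. The 10 calls were 3 without the libraries numbered 1 or 2 and 4 in a fit of only these groups. At 16 h of 991 3 sterol genes rose and 6 fell with siPGC1a, and 9 fatty acid genes rose and 1 fell, against 39.2% and 12.7% of all genes. With siControl 5 sterol genes rose and 6 fell, and 8 fatty acid genes rose and 2 fell, against 44.6% and 12.4%. Median-ratio scaling, which takes the all-gene medians of 0.14 and 0.17 to 0.0093 and 0.016, gave 0 higher and 11 lower for the sterol genes with siPGC1a and 2 higher and 8 lower with siControl. For the fatty acid genes it gave 3 higher and 2 lower with siPGC1a and 3 higher and 3 lower with siControl. Quantile normalization gave 0 higher and 6 lower for the sterol genes with siPGC1a and 1 higher and 7 lower with siControl, and 4 higher and 0 lower for the fatty acid genes with siControl. No response to 991 differed between siPGC1a and siControl cells for any of the 32 members at any of the 5 times in limma, and 0, 1, 2, 4 and 2 of them had an unadjusted p under 0.05 at 2, 4, 8, 16 and 24 h. Over all genes the response was lower with siPGC1a for 0%, 0.0224%, 0.0298%, 0.187% and 0.0671% at those times, and higher for 0.0149% at 16 h and 0% at the others. Without 1 set of libraries the siPGC1a fatty acid calls at 16 h were 4 to 6 in place of 10 and the sterol calls 5 without those numbered 1 or 2, and with siControl the sterol calls were 7 without those numbered 3 and the fatty acid calls 6 without those numbered 1.

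In FNIP1 cells the values rest on the outlying SA5 library under DMSO. FASN stood at 15.96, 51.95 and 49.7 TPM in SA5 and 51.99, 52.02 and 51.02 TPM in WT FNIP1 libraries under DMSO, and HMGCS1 at 4.74, 20.8 and 19.4 TPM in SA5 and 16.1, 17.1 and 16.3 TPM in WT FNIP1. The SA5 library numbered 1 was far below its fellows for both genes, and it also held the lowest FNIP1. With that library 1 sterol gene was higher in SA5 cells and 1 fatty acid gene lower, against 1.69% and 8.64% of all genes, whose median was -0.30, or 4.0e-04 after median-ratio scaling. Without it the counts were 3 higher and 0 lower for the sterol and 1 higher and 0 lower for the fatty acid genes, against 0.902% and 2.33%. At 16 h of 991 2 sterol genes rose and 3 fell in SA5 cells, and 8 fatty acid genes rose and 0 fell, against 39.2% and 5.76% of all genes, whose median was 0.36, or 0.012 after median-ratio scaling. Without it they were 1 higher and 4 lower for the sterol and 4 higher and 0 lower for the fatty acid genes, against 22.3% and 9.09%. In WT FNIP1 cells at 16 h 1 sterol gene rose and 3 fell, and 1 fatty acid gene rose and 0 fell, against 11.6% and 4.87%. Without that SA5 library, which adds to the spread shared by the fit, they were 3 higher and 4 lower for the sterol and 3 higher and 1 lower for the fatty acid genes, against 23.3% and 12.9%. Median-ratio scaling gave 0 higher and 6 lower for the sterol genes in SA5 at 16 h and 1 higher and 0 lower for the fatty acid genes under DMSO, and 0 higher and 2 lower for the sterol and 0 higher and 1 lower for the fatty acid genes in WT FNIP1 at 16 h. Quantile normalization gave 1 higher and 0 lower for the fatty acid genes under DMSO and 0 higher and 3 lower for the sterol genes in WT FNIP1. The 13 calls of SA5 cells at 16 h were 0 in a fit of only those groups and 8 without the libraries numbered 3, and the 5 of WT FNIP1 cells were 14, 1 and 1 without the libraries numbered 1, 2 and 3. Under DMSO the 2 calls were 6, 0 and 0.

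ACAT2 fell in both, to 64.9, 69.7 and 69.2 TPM in SA5, against 85.7, 92.1 and 91.97 TPM, and to 58.1, 57.4 and 59.1 TPM in WT FNIP1, against 83.5, 85.6 and 88.6 TPM under DMSO. No member's response differed between SA5 and WT FNIP1 at any time in limma, and 0, 3, 4 and 2 of 32 had an unadjusted p under 0.05 at 2, 4, 8 and 16 h, beside 0% to 0.00751% of all genes called in a direction. HMGCS1 at 8 h, where the AMPK arms stood apart most, differed by 0.46 ± 0.42, adjusted p = 0.88, with the outlying library in the fit.

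Across the 10 arms ACAT2 fell at 16 h of 991 in each, and FASN did not share a direction. The change of ACAT2 ran from -0.78 in AMPK KO cells to -0.25 in ESRRA KO cells. FASN changed by 0.96 in ESRRA KO and 0.64 in their WT cells, by 0.062 in DKO, where it was not called, and 0.46 in their WT cells, and by -0.22 in WT cells of the AMPK table. Over all genes 11.6% to 44.6% rose and 4.87% to 27.1% fell per arm, and the share that fell in all 10 arms was not counted. The tables were normalized separately and no test was made across them.

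**Figure D5:**
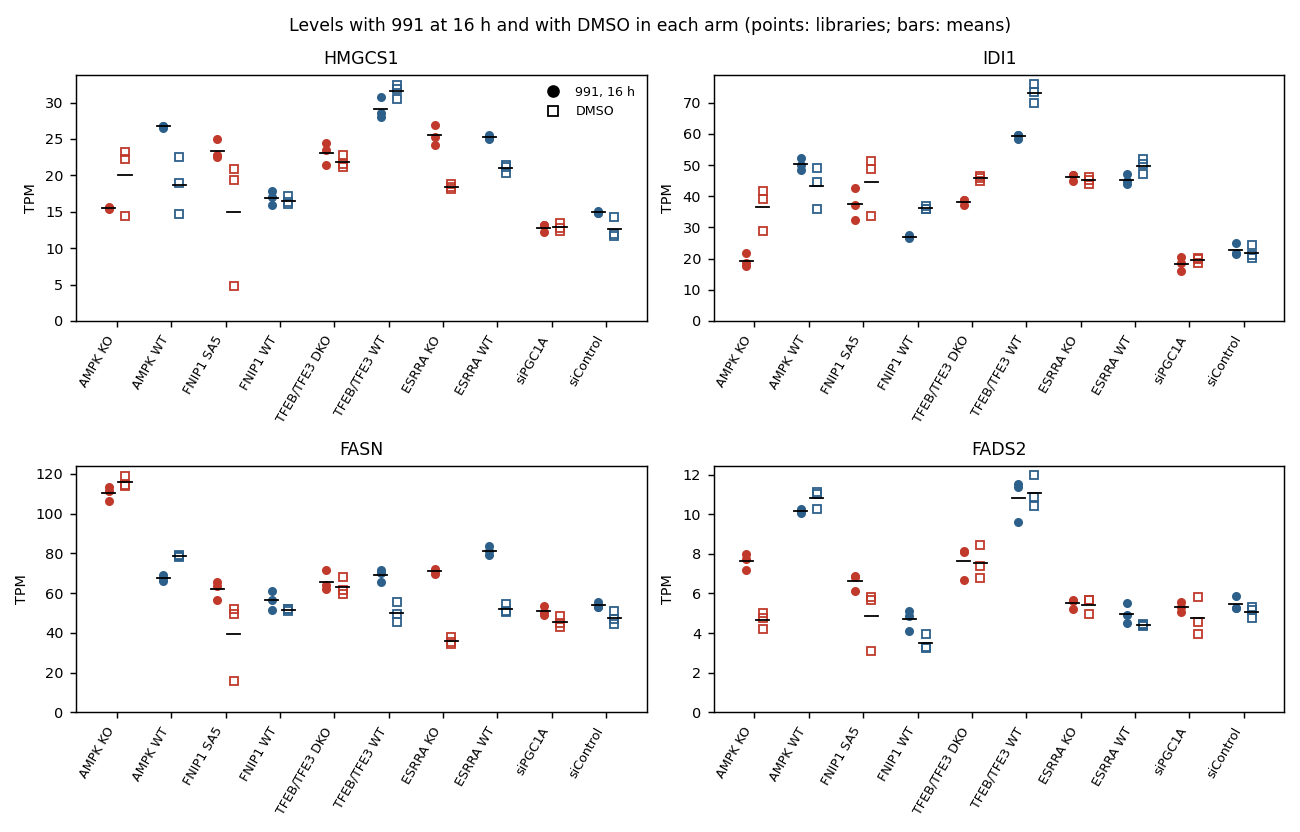
Levels of HMGCS1, IDI1, FASN and FADS2 in TPM after 16 h of 991 and under DMSO in each of the 10 arms. Points are libraries, 3 per group, the altered arm stands left of its control arm, and levels are set side by side across tables that were normalized separately. FASN rises in both ESRRA arms, and IDI1 falls in AMPK KO.

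Of 45 other genes of the pathway 40 or 41 were measured in each table. INSIG1, which retains the SREBP complex when sterols are plentiful, stood at 10.04, 10.3 and 10.2 TPM in KO cells after 16 h of CCCP, against 50.002, 63.6 and 65.6 TPM under DMSO, and at 15.2, 16.1 and 17.1 TPM in WT, against 49.6, 58.5 and 55.8 TPM. At that time 9 of 41 rose and 22 fell in KO cells, against 39.6% and 29.3% of all genes. In WT cells 11 rose and 20 fell, against 44.1% and 26.6%. At 4 h of Phen in WT cells SREBF2 rose by 0.38 and SREBF1 fell (-0.46). By 16 h of Phen SREBF2 had risen to 85.6, 84.2 and 82.8 TPM in WT, against 39.1, 41.8 and 40.9 TPM, and NPC1, which exports cholesterol from lysosomes, by 1.15, the largest rise of the list. Of the 41, 22 had risen and 10 fallen, against 45.3% and 34.9% of all genes, so these shares are not far from the background. The response to 16 h of 991 was lower in AMPK KO than in WT cells for MBTPS2, a protease that releases SREBP (-0.50), and higher for SREBF1 (0.54). In DKO cells under DMSO 14 of 40 were higher and 14 lower, against 37.6% and 13.7% of all genes, with INSIG1 at 47.1, 46.05 and 47.4 TPM in DKO and 114, 107 and 108 TPM in WT libraries. NPC1 was higher there by 0.59.

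In the median, pairs of sterol genes varied together more than pairs of fatty acid genes did. Over the 34 group means of the AMPK table, which share DMSO groups and libraries, the median Pearson correlation was 0.497 over 153 pairs of sterol genes, 0.19 over 91 pairs of fatty acid genes and 0.269 over 252 pairs between the branches, given as a description without a test. Sterol pairs ran from -0.835 to 0.939 and fatty acid pairs from -0.624 to 0.822, and values for pairs of all genes are not given. PMVK of the sterol branch had -0.56 with HMGCS1, and ACLY of the fatty acid branch 0.773. The genes of the table most like HMGCS1 over these groups were INSIG1 (r = 0.944), MSMO1 (0.923), NSDHL (0.922), FDFT1 (0.92) and SQLE (0.866). Those most like FADS2 were RPL22L1 (0.885), EIF3D (0.868), TGDS (0.857), SNHG5 (0.852) and LRRC75A-AS1 (0.852), and no member of either branch was among them.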

How the data were processed

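RNA was prepared with the RNeasy Plus mini kit from cells in DMEM with serum, per the labels' protocols. The deposited values are TPM per gene, computed by the authors in 5 tables, and FastQC, STAR and HOMER with the GRCh38 build are named per the submitters' processing notes, with no role or version. TPM keeps no read counts, so sequencing depth is unknown. Strand and the treatment of multi-copy rows are not given in the sources used here. Titles, sample codes and tags put each library in its group, and for 6 libraries of AMPK WT cells the opening of the title disagreed with the code and tags, which were followed.

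A gene was tested in a table where 3 or more of its libraries reached 1 TPM. Values were log2(TPM + 1), fitted in limma 3.58.1 (R 4.3.3) with all groups of a table in 1 model, and p-values were adjusted over all genes tested by the Benjamini-Hochberg method with a threshold of 0.05. The contrasts were each compound and time minus DMSO, altered minus control arm under DMSO, the difference of the arms' responses, and pairs of compounds. The steps were tested on simulated data. Python 3.11.15 and matplotlib 3.10.9 made summaries and plots. The labels do not say that replicates are separate cultures, so the p-values cover the spread among these libraries, which may be technical. The members and lists were chosen with earlier results of these data known. All members may be named. Per-library values were given for the member of each branch with the largest called change of a main comparison and for HMGCS1, IDI1, SQLE, LSS, FASN, SCD, FADS2, ACACB and LPIN1 where the text turns on them, and for others picked after their values were seen (ACAT2, EBP, ELOVL6, TM7SF2, ELOVL1, FDFT1, MSMO1, ACSF2). Promoters came from RefSeq (GRCh38.p14), taking the start nearest to that of the transcript most tables use where it lay close by.

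Alternatives were a pseudocount of 0.1, no filter, median-ratio scaling, quantile normalization, only the groups compared, each replicate number left out, a replicate block, and the 6 disputed libraries left out. Leaving out the SA5 library numbered 1 under DMSO, alone or with that at 8 h, was chosen after seeing the data. Same-numbered DMSO libraries of the AMPK KO and WT arms deviated from their group means together (r between 0.193 and 0.644), so these numbers pair the samples in that table's DMSO comparison. In the other 4 tables the same correlations between DMSO groups lay between -0.052 and 0.0621. Of 70 treated groups set against DMSO of their own arm, 5 had all 3 correlations over 0.1, 4 of them in the AMPK table, and the other was SA5 at 8 h of 991 (0.713 to 0.873).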

Additional observations from a re-analysis of the deposited data

Results flagged for a closer look

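More members differed between 2 arms in their response to a compound, by the limma test of the difference itself, than are listed here. At 8 h of 991 between AMPK KO and WT cells 15 of 32 were called, against 5.14% of all genes higher and 15.8% lower. For each compound and arm pair 1 member, picked by its values, is given in each branch that had one, 12 cases in all. All values are differences of log2(TPM + 1) changes.

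Between AMPK KO and WT cells, KO minus WT, FADS2 differed by 0.69 ± 0.12 (adjusted p = 1.8e-05) at 16 h of 991, by 1.26 ± 0.12 (adjusted p = 1.2e-13) at 16 h of CCCP, by 0.58 at 8 h of Phen and by 0.80 ± 0.12 (adjusted p = 9.7e-06) at 16 h of Rot. The 4 values share the DMSO libraries of both arms, where FADS2 already differed by -1.06, so they are not independent of each other. In the sterol branch IDI1 differed by -1.40 ± 0.21 (adjusted p = 1.4e-06) at 8 h of 991 and HMGCS1 by -1.06 ± 0.17 (adjusted p = 3.4e-05) at 4 h of Phen. MSMO1 differed by -0.51 at 4 h of Rot. IDI1 also differed by -1.07 ± 0.21 (adjusted p = 7e-05) at 4 h of CCCP, a value that rests on the 3 WT libraries with disputed labels and cannot be given without them.

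Between TFEB+TFE3 DKO and WT cells MSMO1 differed by 0.39 at 16 h of 991 and ACSL3 by -0.46 at 24 h. Between ESRRA KO and WT cells FASN differed by 0.46 ± 0.089 (adjusted p = 0.0038) at 24 h and IDI1 by 0.41 ± 0.078 (adjusted p = 0.0031) at 4 h. The cause of these differences was not tested.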

How the results depend on the processing

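Over all alternatives, 6094 of the results for single genes kept their direction and their side of the threshold, 933 lost their call and 9 reversed. Of the counts 446 stayed within 1.5 times and 78 did not. With the replicate block 2 of 721 gene results lost their call and no count moved by over 1.5 times. For KO minus WT at 4 h of Phen the block gave 10 sterol calls in place of 7. Leaving out the disputed libraries ended 1 gene call, and the pseudocount of 0.1 ended 2. The reversed genes were ELOVL1 in WT cells at 16 h of Phen (-0.013), SQLE with siControl (-0.025) and FDFT1 (-0.18) and ELOVL1 (-0.085) in SA5 at 16 h of 991, and ELOVL1 in SA5 minus WT FNIP1 (0.041), by median-ratio scaling. Quantile normalization reversed ACACB (-0.0032) and LPIN1 (-0.0037) with siPGC1a, ACLY with siControl (0.013) and FADS2 in SA5 (-0.099).

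At 16 h of 991 the fatty acid calls fell to 5 in DKO by either scaling, to 5 by median-ratio scaling and 3 by quantile normalization with siPGC1a, and to 6 and 4 with siControl. With only the groups compared the calls were 1, 7 and 7 for KO minus WT at 4, 8 and 16 h of 991, 1 at 4 h of Phen, 7 in WT at 4 h of 991, 7 in the AMPK baseline, 4 in the ESRRA and 4 in the siPGC1a baseline, and 0 at 4 h and 1 at 16 h for ESRRA KO minus WT. The last was also 1 without a filter and 1 by quantile normalization. In the FNIP1 table only the groups compared gave 0 in SA5 and 18 in WT at 16 h and 0 under DMSO. Quantile normalization gave 8, 3 and 5 there, and median-ratio scaling 3 in WT and 6 under DMSO. Without SA5 DMSO replicate 1 the WT count was 11 and the DMSO count 4, and without that library and SA5 replicate 1 at 8 h they were 18 and 11. Leaving out the first of these moved the WT shares of all genes from 11.6% higher and 4.87% lower to 23.3% and 12.9%. Shares of all genes are not given for the other alternatives in this section. Their counts therefore do not tell a shift of the members from a shift of the whole table.

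Leaving out each replicate number in turn gave, at 16 h of 991, 8 to 13 sterol calls in AMPK KO, 5 to 10 sterol and 4 to 7 fatty acid calls in DKO, 5 to 7 fatty acid calls in ESRRA KO, 4 to 10 sterol calls in their WT, 5 to 8 sterol and 4 to 6 fatty acid calls with siPGC1a, 7 to 10 sterol and 6 to 8 fatty acid calls with siControl, 8 to 17 in SA5 and 1 to 14 in WT FNIP1, and 6 to 10 fatty acid calls in WT at 16 h of Rot. For KO minus WT the ranges were 1 to 12, 5 to 20 and 5 to 15 at 4, 8 and 16 h of 991, 3 to 12 for CCCP at 16 h and 1 to 18 for Phen at 4 h. For DKO minus WT they were 3 to 5 at 16 h and 3 to 7 at 24 h, and for ESRRA KO minus WT 0 to 3 at 4 h and 0 to 1 at 16 h. Under DMSO they were 0 to 6 for SA5, 5 to 5 for ESRRA KO and 3 to 7 for siPGC1a. The cause of these shifts was not tested, and depth cannot be weighed in TPM.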

Other observations

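A few members, picked after their values were seen, moved the same way in most arms at 16 h of 991. Over all genes 11.6% to 44.6% rose and 4.87% to 27.1% fell per arm. How many of all genes moved alike in as many arms was not counted. ACACB rose in 9 of 10 arms, from 0.22 with siPGC1a to 0.58 in SA5 cells, and was not called in WT FNIP1 cells (0.20), though with siPGC1a it had -0.0032 after quantile normalization. EBP fell in 9 of 10 arms, from -0.57 in SA5 cells to -0.16 in DKO cells, with -0.27 in WT FNIP1 cells. LPIN1 rose in 8 of 10 arms and was called in neither FNIP1 arm, and with siPGC1a it had -0.0037 after quantile normalization. ELOVL6 rose by 0.89 in AMPK KO and 0.89 in their WT cells, and by 0.16 in the WT cells of the TFEB table, where DKO cells had 0.14 and were not called. These changes come from tables normalized separately, and the difference between tables was not tested.

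Outside the enzymes, ACSF2, an acyl-CoA synthetase, rose in the AMPK arms at 16 h of 991, to 14.2, 12.9 and 13.1 TPM in KO cells, against 5.52, 6.54 and 6.11 TPM under DMSO, and to 12.3, 13.6 and 12.2 TPM in WT cells, against 5.54, 6.003 and 5.81 TPM. NR1H3, which encodes the sterol-sensing receptor LXRα, rose in both arms as well (0.69 in KO and 0.73 in WT). SREBF1 fell in WT cells (-0.65) and was not called in KO cells (-0.11).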
